A study of Mus musculus with 8 samples.

Results

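The genes described here are 10 classic targets of interferon gamma in mouse cells: the chemokines Cxcl9 and Cxcl10, the guanylate-binding proteins Gbp2, Gbp3 and Gbp6, the immunity-related GTPases Igtp, Irgm1, Irgm2 and Iigp1, and the transcription factor Irf1. They were chosen by name, and each was measured by the array probe set annotated to it, with the brighter one taken where a gene had more than 1. The 10 genes fall on 9 of the 35557 probe sets of the table. Cxcl9, Cxcl10, Gbp3, Irgm1, Iigp1 and Irf1 have probe sets of their own, and the other 4 genes share 3 probe sets with close relatives. The Gbp2 probe set is also annotated to Gbp2b, and 1 probe set carries both Irgm2 and Igtp. The Gbp6 probe set is annotated to Gbp4, Gbp6, Gbp8, Gbp9, Gbp10 and Gbp11 alike and is called the Gbp6 cluster, so that its value belongs to no single gene of the 6.

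RNA of sorted tail tumor cells was measured on 8 Affymetrix arrays. The TAX-LUC mice were 2 of genotype IL-15-/- and 2 of genotype IL-15+/+, with 1 CD16/32HI and 1 CD16/32LO array from each mouse. All 4 mice carried TAX and LUC, which are the Tax oncogene of the leukemia virus HTLV-1 under the human granzyme B promoter and firefly luciferase under the viral long terminal repeat. They therefore share a tumor driven in cells that use the granzyme B promoter, and the IL-15-/- allele replaces a middle stretch of the gene's exons by a neomycin cassette in every cell of the animal. IL-15-/- mice of strain C57BL/6 had been crossed to TAX-LUC mice of mixed C57BL/6 and FVB background. The mouse of replicate 1 was 14 months old in each genotype, and that of replicate 2 was 12 months old, and the mice are named here by genotype and replicate number (IL-15-/- mouse 1 and so on). Each group is 2 arrays from 2 mice, so the spread between mice is known only roughly. CD16/32HI was sorted as the malignant large granular lymphocytes and CD16/32LO as infiltrating cells rich in neutrophils. Values are log2 signals after robust multi-array averaging (RMA), on which 1 unit is a doubling. Levels of different probe sets are not set against each other, except to mark dim ones.

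The labelled populations were checked against marker genes, and each marker list holds 8 genes. The CD16/32HI arrays of IL-15-/- mouse 2 and of both IL-15+/+ mice had mean macrophage markers (C1qa, Csf1r and others) of 10.69, 10.41 and 10.02, and mean NK cell markers of 4.93, 5.67 and 5.24. Their CD16/32LO arrays had mean neutrophil markers (Cxcr2, Csf3r and others) of 10.74, 10.26 and 10.53. On these arrays the CD16/32HI cells thus carried macrophage transcripts. Their NK cell marker means were below those of the CD16/32LO arrays, which were 5.02, 6.98 and 6.66. In IL-15-/- mouse 2 the 2 NK cell means were nearly equal. The T cell marker means were 5.64, 6.28 and 5.83, against 6.18, 7.28 and 7.16 on the CD16/32LO arrays. In IL-15-/- mouse 1 the neutrophil mean was 10.92 on the CD16/32HI array and 8.74 on the CD16/32LO array, and the macrophage mean was 8.44 and 10.52. The populations of this mouse go against their labels. The labels were kept, and most member results that rest on its arrays are given with and without them. For genes that are not members this was done only in part. Values equal to the last digit in the same probe set occurred only among the 4 arrays of replicate 1 and between the replicate 2 arrays of each genotype. These groups of arrays are therefore taken here as normalization sets, which the labels do not name. Xist was at 10.08 to 10.75 on the IL-15-/- arrays and at 3.92 to 4.64 on the IL-15+/+ arrays, so that sex cannot be told apart from genotype. The Il15 probe set was at 6.31 and 5.22 in IL-15-/- CD16/32HI cells, against 5.40 and 5.18 in IL-15+/+ cells, and at 5.45 and 6.54 in IL-15-/- CD16/32LO cells, against 6.42 and 6.88 in IL-15+/+ cells. By the study's description it also reads exons that the allele keeps, so that it does not check the genotype.

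Interferon gamma, made by NK cells and T cells, binds the receptor pair Ifngr1 and Ifngr2, which works through the kinases Jak1 and Jak2 bound to it. Promoters of target genes often carry the gamma-activated sequence or the interferon-stimulated response element, and Irf1, itself a target, binds the response element. Guanylate-binding proteins (GBPs) and immunity-related GTPases (IRGs) coat and break the vacuoles of intracellular parasites and bacteria. Irgm1, Irgm2 and Igtp (also named Irgm3) are the regulatory IRGs that hold effectors such as Iigp1 in check on the cell's own membranes. Cxcl9 and Cxcl10 draw Cxcr3-bearing T cells and NK cells into inflamed tissue and tumors.

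Promoter windows from RefSeq (build GRCm38.p6) were found for 8 of the 10 genes and are shown as the sequence next to the start of each member. The 250 bases before the transcription start were searched on both strands for the gamma-activated sequence TTCNNNGAA and for the response element core GAAANNGAAA, and matches are in capitals. Of 32851 windows of that length, 7.02% held the first motif and 2.98% held the second. Irf1 held the first motif alone. The stretches of Igtp and Irgm2 held both motifs next to each other, the windows share an unbroken run of 55 bases, and the same probe set reads both genes. Irgm1 and Gbp3 held overlapping matches of the second motif, Gbp2 and Cxcl10 held 1 match each, and Cxcl9 held neither in this window. Second windows of Gbp3 and Irf1, at other annotated starts, held neither. Of 7 other GBP and IRG genes with a window, 5 held the first motif and 6 the second. For Irf1, Cxcl10 and Cxcl9 all 250 bases are printed and for the others 100, and the Gbp3 stretch ends just before the most upstream annotated start of the gene. A match is a description of the letters and was not tested as a binding site.
Irf1, chr11:53769764-53770013, plus strand: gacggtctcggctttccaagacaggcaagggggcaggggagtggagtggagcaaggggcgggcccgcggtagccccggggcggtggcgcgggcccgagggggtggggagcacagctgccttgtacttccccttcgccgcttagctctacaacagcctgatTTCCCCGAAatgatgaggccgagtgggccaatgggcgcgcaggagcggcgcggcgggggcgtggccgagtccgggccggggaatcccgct
Igtp, chr11:58199456-58199555, plus strand: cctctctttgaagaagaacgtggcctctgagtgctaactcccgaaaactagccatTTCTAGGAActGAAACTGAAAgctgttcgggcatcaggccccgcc
Irgm2, chr11:58214877-58214976, plus strand: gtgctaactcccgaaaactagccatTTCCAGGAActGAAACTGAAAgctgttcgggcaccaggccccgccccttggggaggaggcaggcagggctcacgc
Irgm1, chr11:48871421-48871520, minus strand: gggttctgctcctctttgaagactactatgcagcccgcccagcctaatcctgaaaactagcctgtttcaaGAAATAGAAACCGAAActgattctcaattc
Gbp2, chr3:142620563-142620662, plus strand: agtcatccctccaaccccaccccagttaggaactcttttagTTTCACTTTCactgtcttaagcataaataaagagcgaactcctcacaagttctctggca
Gbp3, chr3:142559916-142560015, plus strand: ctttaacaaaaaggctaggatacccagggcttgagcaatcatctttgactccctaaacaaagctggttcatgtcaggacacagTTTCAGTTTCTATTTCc
Cxcl10, chr5:92348890-92349139, minus strand: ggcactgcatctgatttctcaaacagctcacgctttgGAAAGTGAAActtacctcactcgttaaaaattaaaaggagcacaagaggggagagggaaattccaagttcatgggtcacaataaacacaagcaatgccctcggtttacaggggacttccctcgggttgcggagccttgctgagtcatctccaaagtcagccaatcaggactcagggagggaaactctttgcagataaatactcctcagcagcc
Cxcl9, chr5:92328080-92328329, minus strand: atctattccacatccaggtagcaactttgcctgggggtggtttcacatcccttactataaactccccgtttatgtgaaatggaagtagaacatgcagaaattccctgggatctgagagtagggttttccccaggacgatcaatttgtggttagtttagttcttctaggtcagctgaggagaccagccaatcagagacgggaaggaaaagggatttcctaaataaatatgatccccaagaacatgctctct

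The first question was whether the members differed between IL-15-/- and IL-15+/+ tumors in CD16/32HI cells. None of the 9 probe sets passed the test (limma on all 8 arrays, adjusted p under 0.05 over 21797 probe sets). Over all probe sets 0.0229% passed, 5 in number, and 1070 had an unadjusted p under 0.05, Cxcl9 and Iigp1 among them. In bulk samples fewer cells of a type and less RNA per cell cannot be told apart. Cxcl9, a chemokine that interferon gamma induces strongly, had the widest range of the members. It was at 5.02 and 7.20 in IL-15-/- CD16/32HI cells of replicates 1 and 2, against 9.27 and 6.94 in IL-15+/+ CD16/32HI cells. The IL-15+/+ array of replicate 1 was the highest and the IL-15-/- array of replicate 1 the lowest, while the replicate 2 arrays lay close together, and the groups overlapped. The log2 change was -2.0 (SE 0.803, limma adjusted p = 0.855), a 3.99-fold lower mean in IL-15-/- cells. It was -0.91 without IL-15-/- mouse 1, and 0 of 9 members passed then, where 0.0413% of all probe sets did. By fold alone 0.078% of probe sets were over 3-fold lower in CD16/32HI cells, 17 in number, and Cxcl9 was the member among them.

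Iigp1, an effector IRG, was at 3.58 and 4.34 in IL-15-/- CD16/32HI cells, against 5.75 and 4.55 in IL-15+/+ cells. This is a dim probe set, since the lower quartile of all probe sets was 4.42 to 4.74 over the 8 arrays. All its CD16/32LO values and both IL-15-/- CD16/32HI values lie below the quartile of their array. Both IL-15-/- arrays lay below both IL-15+/+ arrays, as 10.4% of all probe sets did, and the change of -1.19 (SE 0.437) did not pass (limma adjusted p = 0.855). Irf1 was at 7.68 and 7.23 in IL-15-/- CD16/32HI cells, against 6.88 and 6.23 in IL-15+/+ cells. Irf1 was thus the member whose IL-15-/- arrays lay above both IL-15+/+ arrays, as 24.0% of all probe sets did, with a change of 0.91 (SE 0.455, limma adjusted p = 0.855). A second, dimmer Irf1 probe set had 6.85 and 7.06 in IL-15-/- cells, against 6.41 and 6.52 in IL-15+/+ cells, and its groups did not overlap either. Cxcl10, the companion chemokine of Cxcl9, was at 6.47 and 7.83 in IL-15-/- CD16/32HI cells, against 7.52 and 6.26 in IL-15+/+ cells. Its groups overlapped, with a change of 0.26 (SE 0.502), and the highest array of all was of an IL-15-/- mouse.

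The GBPs overlapped between the genotypes in CD16/32HI cells. Gbp3 was at 5.96 and 7.53 in IL-15-/- cells, against 7.68 and 7.40 in IL-15+/+ cells, so that 1 IL-15-/- array stood below the other 3 (log2 change -0.80). The Gbp6 cluster was at 6.45 and 7.93 in IL-15-/- cells, against 8.01 and 7.34 in IL-15+/+ cells, with the same single low array (-0.48). The Gbp2/Gbp2b probe set was at 6.55 and 7.12 in IL-15-/- cells, against 7.84 and 6.54 in IL-15+/+ cells (-0.36). The regulatory IRGs had the smallest average changes. Irgm1 was at 6.88 and 7.81 in IL-15-/- cells, against 7.53 and 7.20 in IL-15+/+ cells (-0.02), and Irgm2/Igtp was at 8.40 and 8.55 against 8.83 and 8.50 (-0.19). The IL-15-/- CD16/32HI array of replicate 1, low in Cxcl9, Gbp3, the Gbp6 cluster and Iigp1, is the one with neutrophil markers. The part of this mismatch in the result was not tested beyond leaving the mouse out, which took the median change of the 9 probe sets to -0.0139, against -0.355 with it. The median change of all probe sets was 0.0943. Without IL-15-/- mouse 1 the changes were -0.82 for Iigp1, 0.68 for Irf1, 0.95 for Cxcl10 and -0.01 for Gbp3. They were then 0.26 for the Gbp6 cluster, -0.07 for Gbp2/Gbp2b, 0.45 for Irgm1 and -0.11 for Irgm2/Igtp.

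**Figure D1:**
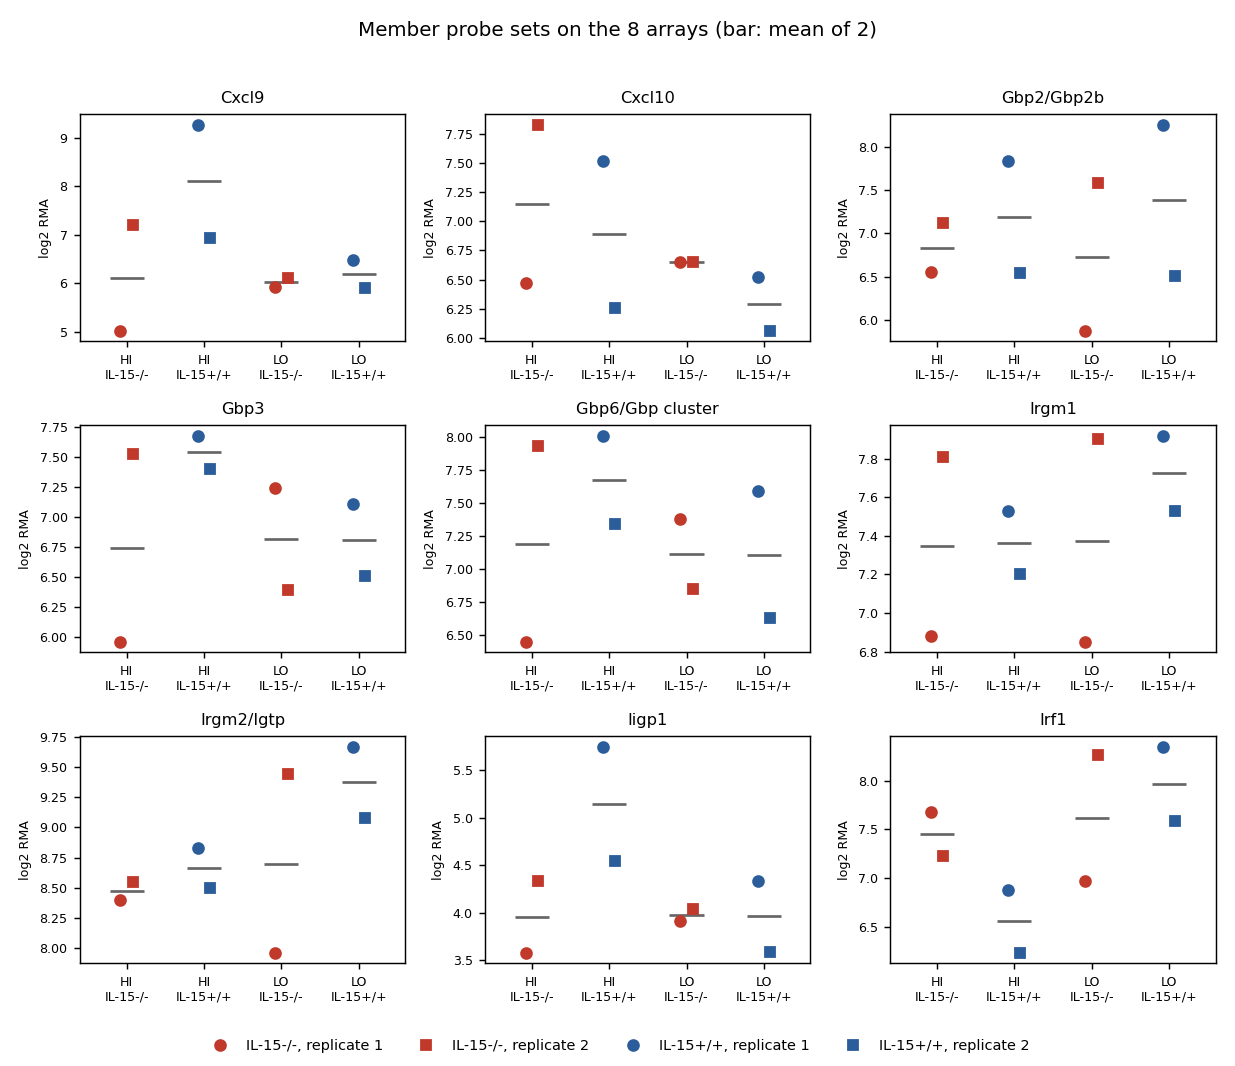
Log2 RMA signal of the 9 member probe sets (vertical axes, each with its own range) on the 8 arrays, by population (HI, LO) and genotype. Points are single arrays, with circles for replicate 1 and squares for replicate 2, red for IL-15-/- and blue for IL-15+/+, and bars are means of 2 arrays. Cxcl9 spans 5.02 to 9.27 in CD16/32HI cells and 5.91 to 6.48 in CD16/32LO cells.

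In CD16/32LO cells the members also did not differ by the test. None of the 9 passed (limma, all adjusted p = 1.0), where 0.0367% of all probe sets did and 417 had an unadjusted p under 0.05, with 0 of the members among them. Cxcl9 was at 5.93 and 6.12 in IL-15-/- CD16/32LO cells, against 6.48 and 5.91 in IL-15+/+ cells, a narrow range beside that of CD16/32HI cells. Cxcl10 was at 6.65 in both IL-15-/- arrays, against 6.52 and 6.06 in IL-15+/+ cells. It was the member that did not overlap there, with both IL-15-/- arrays above, as 24.2% of all probe sets were (log2 change 0.36). Irgm2/Igtp was at 7.96 and 9.44 in IL-15-/- CD16/32LO cells, against 9.67 and 9.08 in IL-15+/+ cells (-0.67). Gbp2/Gbp2b was at 5.87 and 7.58 in IL-15-/- cells, against 8.26 and 6.51 in IL-15+/+ cells (-0.66). In both, the array of replicate 1 was the lowest of the 4 in IL-15-/- cells and the highest in IL-15+/+ cells. Irgm1 followed the same order, at 6.85 and 7.90 in IL-15-/- cells, against 7.92 and 7.53 in IL-15+/+ cells, as did Irf1, at 6.97 and 8.26 against 8.35 and 7.58.

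Gbp3 was at 7.24 and 6.39 in IL-15-/- CD16/32LO cells, against 7.11 and 6.51 in IL-15+/+ cells, and the Gbp6 cluster was at 7.38 and 6.85 against 7.59 and 6.63. For both the change was 0.01. Iigp1 was at 3.92 and 4.04 in IL-15-/- CD16/32LO cells, against 4.34 and 3.59 in IL-15+/+ cells, with a change of 0.02. Without IL-15-/- mouse 1 the changes of Gbp3 and the Gbp6 cluster were -0.42 and -0.26, and those of Gbp2/Gbp2b, Irgm1, Irgm2/Igtp and Irf1 were 0.19, 0.18, 0.07 and 0.29. All 6 thus had the other sign, and 0 of 9 passed, where 0.119% of all probe sets did. The difference between the genotype changes in CD16/32HI and CD16/32LO cells was tested within mice, and 0 of the 9 probe sets and 0 of all probe sets passed (limma, 578 at an unadjusted p under 0.05). Without IL-15-/- mouse 2, which leaves the mouse whose populations go against their labels alone for its genotype, 6 of the 9 passed, where 13% of all probe sets did.

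The genotype difference depended on which mice were compared. Within replicate 1, which is 1 normalization set, IL-15-/- CD16/32HI cells were lower in 8 of 9 member probe sets, with a median difference of -1.29, where the median of all probe sets was -0.0268. Cxcl9 differed by -4.25 there, Iigp1 by -2.18, Gbp3 by -1.73, the Gbp6 cluster by -1.55 and Gbp2/Gbp2b by -1.29. Of all probe sets 46.6% were higher in IL-15-/- cells there. In replicate 1 the IL-15-/- CD16/32HI array has neutrophil markers and the IL-15+/+ one macrophage markers, and the CD16/32LO arrays have the reverse. The part of this in the differences was not tested. Within replicate 2 IL-15-/- CD16/32HI cells were higher in 8 of 9, with a median of 0.577, and Cxcl10 had the largest difference of the members, 1.58. That comparison runs between normalization sets, and 71.3% of all probe sets were higher in IL-15-/- cells, with a median of 0.23. In CD16/32LO cells the member median was -0.552 in replicate 1, where 2 of 9 were higher, and 0.372 in replicate 2, where 8 of 9 were. The median of all probe sets was 0 and 0.249 in these, and 49.9% and 78.8% of them were higher in IL-15-/- cells. Irf1 in CD16/32HI cells (0.81 and 1.01), Iigp1 in CD16/32HI cells (-2.18 and -0.21) and Cxcl10 in CD16/32LO cells (0.13 and 0.58) had the same sign in both replicates. In each of the other cases the 2 replicates went opposite ways.

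**Figure D2:**
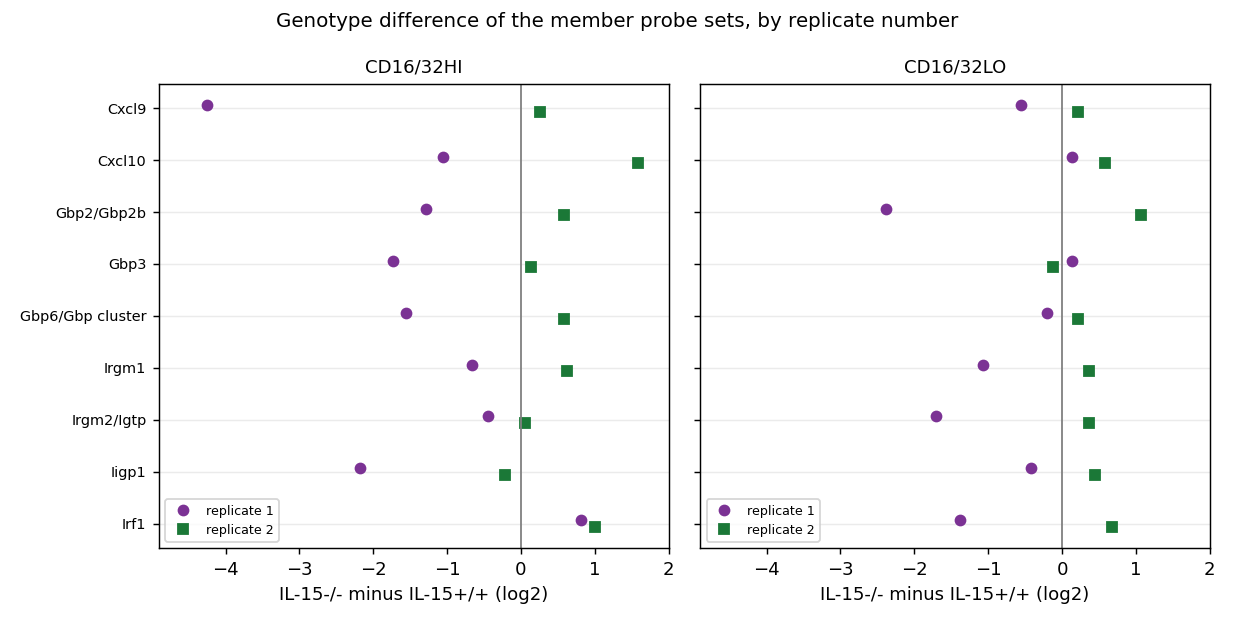
Difference IL-15-/- minus IL-15+/+ in log2 signal (horizontal axis) for the 9 member probe sets, in CD16/32HI cells (left) and CD16/32LO cells (right), between the mice of replicate 1 (circles) and of replicate 2 (squares). In CD16/32HI cells 8 of 9 circles lie below 0 and 8 of 9 squares above it. The circles include IL-15-/- mouse 1, whose markers go against its labels.

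Averaging both arrays of a mouse gives a value that does not depend on which array carries which label. For Cxcl9 it was 5.47 and 6.66 in the IL-15-/- mice of replicates 1 and 2, against 7.87 and 6.43 in the IL-15+/+ mice. IL-15-/- mouse 1 was the lowest and IL-15+/+ mouse 1 the highest, and the replicate 2 mice lay between them in the reverse order. This was the common order of the members. IL-15-/- mouse 1 was the lowest in 7 of 9 probe sets, as in 11.8% of all probe sets, and IL-15+/+ mouse 1 was the highest in 6 of 9, as in 29.1%. Both held in 6 of 9, as in 2.75% of all probe sets. With each array centred on its median the counts were again 7 and 6 of 9, against 22.1% and 20.3% of all probe sets. The genotypes overlapped in all 9 probe sets, where 26.9% of all probe sets had both IL-15-/- mice above and 6.29% had both below, and 0 of 9 passed between genotypes on these means, where 0.17% of all probe sets did (limma, 37 in number). Without IL-15-/- mouse 1 it was 0 of 9, where 0.463% of all did. The change of Cxcl9 was -1.08 (SE 0.375, limma adjusted p = 0.724). It passed without IL-15-/- mouse 2 (-1.68, adjusted p = 0.000793 from limma) or without IL-15+/+ mouse 2 (-1.81, adjusted p = 0.0108), so that mice of replicate 2 decided this call. In these 2 fits 0.22% and 0.266% of all probe sets passed. Each such fit leaves 1 mouse in a genotype, assumed to vary like the others.

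CD16/32HI and CD16/32LO cells of the same mouse differed in opposite ways for 2 classes of members. In IL-15-/- mouse 2 and the 2 IL-15+/+ mice, Cxcl9, Cxcl10, Gbp3, the Gbp6 cluster and Iigp1 were higher in CD16/32HI cells, and Irf1, Irgm1 and Irgm2/Igtp were lower. These 8 of 9 had 1 sign in the 3 mice, as 46.6% of all probe sets did (23.8% higher and 22.8% lower). All 8 had the opposite sign in IL-15-/- mouse 1 (Irgm1 by 0.03 only), as 84.5% of such probe sets did. With all 4 mice 0 of 9 and 0% of all probe sets passed (limma with mouse as a block, 257 of all with an unadjusted p below 0.05). Without that mouse 7 of 9 passed, 5 higher and 2 lower in CD16/32HI cells, where 14.3% of all probe sets passed, 6.65% higher and 7.61% lower. That mouse was left out because its markers ran against its labels, and the remaining test covers 3 mice.

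Cxcl9 was higher in CD16/32HI cells by 1.08 in IL-15-/- mouse 2 and by 2.79 and 1.03 in the IL-15+/+ mice. The mean of the 3 mice was 1.63 (SE 0.305, limma adjusted p = 0.0072). IL-15-/- mouse 1 had -0.91. Cxcl10 differed by 1.19 in IL-15-/- mouse 2 and by 1.0 and 0.19 in the IL-15+/+ mice (mean 0.79, limma adjusted p = 0.0274). Gbp3 differed by 1.14 in the IL-15-/- mouse and by 0.58 and 0.90 in the IL-15+/+ mice (mean 0.87, limma adjusted p = 0.00578). The Gbp6 cluster had 1.09 in the IL-15-/- mouse and 0.42 and 0.71 in the IL-15+/+ mice (mean 0.74, limma adjusted p = 0.0161). Iigp1, dim on most arrays, had 0.30 in the IL-15-/- mouse and 1.42 and 0.96 in the IL-15+/+ mice (mean 0.89, limma adjusted p = 0.0186). These 5 probe sets, both chemokines among them, were the ones higher in the cells with macrophage markers.

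Irf1, the transcription factor of the group, ran the other way. It differed by -1.03 in IL-15-/- mouse 2 and by -1.48 and -1.35 in the IL-15+/+ mice, and the mean of -1.28 had the smallest adjusted p of the members (0.000667 from limma). Its second probe set had the same sign in the 3 mice, with CD16/32HI values of 7.06, 6.41 and 6.52 and CD16/32LO values of 8.13, 7.65 and 7.39. Irgm2/Igtp differed by -0.89 in the IL-15-/- mouse and by -0.84 and -0.58 in the IL-15+/+ mice (mean -0.77, limma adjusted p = 0.00703). Irgm1 had -0.09 in the IL-15-/- mouse and -0.39 and -0.33 in the IL-15+/+ mice, and its mean of -0.27 did not pass (limma adjusted p = 0.28). Gbp2/Gbp2b had -0.46 in the IL-15-/- mouse and -0.42 and 0.03 in the IL-15+/+ mice, and did not pass (limma adjusted p = 0.301).

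**Figure D3:**
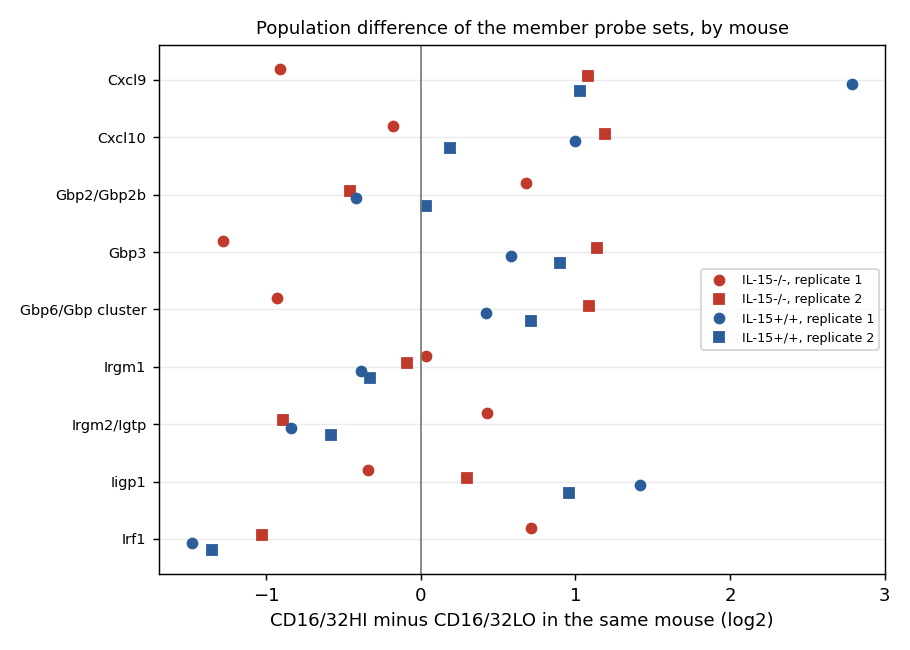
Difference CD16/32HI minus CD16/32LO in log2 signal within each of the 4 mice (horizontal axis) for the 9 member probe sets. Red points are IL-15-/- and blue points IL-15+/+ mice, circles replicate 1 and squares replicate 2. IL-15-/- mouse 1 lies opposite to the other 3 mice for 8 of 9 probe sets, and Irf1 and Cxcl9 have the widest gaps among the other mice, with means of -1.28 and 1.63.

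The levels are set here beside the marker balance of each array, which is the macrophage mean minus the neutrophil mean. It was -2.48 and 2.33 on the IL-15-/- CD16/32HI arrays of replicates 1 and 2, against 1.85 and 1.78 on the IL-15+/+ CD16/32HI arrays. On the CD16/32LO arrays it was 1.78 and -2.21 in IL-15-/- mice, against -1.62 and -2.14 in IL-15+/+ mice. Gbp3 was at 7.24 to 7.68 on the 4 arrays with a positive balance and at 5.96 to 7.11 on the 4 with a negative one, so that these did not overlap. Irf1 was at 6.23 to 7.23 on the first 4 and at 7.58 to 8.35 on the others. For Cxcl9 the 4 arrays with a positive balance spanned 5.93 to 9.27, and the CD16/32LO array of IL-15-/- mouse 1, with a balance of 1.78, was the low one at 5.93. Cxcl9 on that array was thus below the level of the other arrays rich in macrophage markers. Gbp3 and Irf1 were the only members split by the balance without overlap. The Gbp6 cluster, for 1, was at 7.34 to 8.01 with a positive balance and at 6.45 to 7.59 with a negative one. The share of all probe sets with such a split was not computed, so that the split is not read as a trait of these genes. The part of cell makeup in these differences was not tested.

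**Figure D4:**
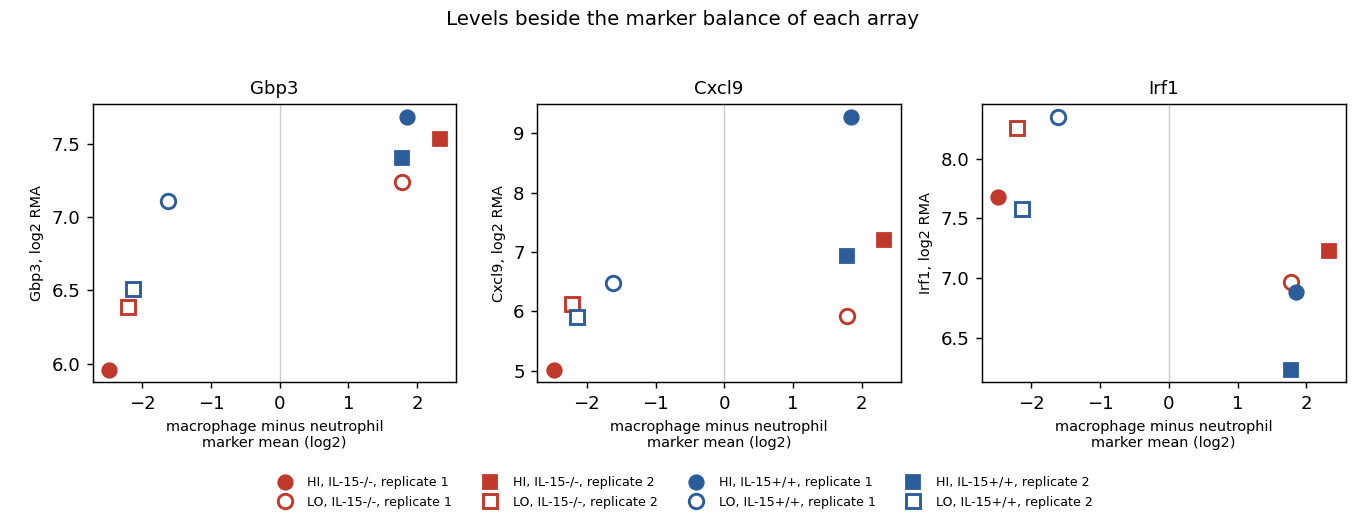
Log2 signal of Gbp3, Cxcl9 and Irf1 (vertical axes) against the mean of 8 macrophage markers minus the mean of 8 neutrophil markers on the same array (horizontal axes, log2). Filled points are CD16/32HI and open points CD16/32LO arrays, with red for IL-15-/-, blue for IL-15+/+, circles for replicate 1 and squares for replicate 2. The filled and open red circles, at -2.48 and 1.78, lie on the sides held by the other population.

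The mean of the 9 probe sets, each centred on its own mean, was -0.62 and 0.33 on the IL-15-/- CD16/32HI arrays, against 0.75 and -0.18 on the IL-15+/+ ones. On the CD16/32LO arrays it was -0.42 and 0.07 in IL-15-/- mice, against 0.41 and -0.35 in IL-15+/+ mice. The order of the mice was the same in both populations. Among genes that are not members, those with the highest Pearson correlation with this mean over the 8 arrays were the probe set shared by Olfr56 and Ifi47 (r = 0.965), Glb1l (0.954), Ddah1 (0.934), Pramel15 (0.929) and C1qtnf2 (0.927). Glb1l ranged from 5.28 to 6.06, Ddah1 from 4.07 to 4.71, Pramel15 from 3.67 to 4.09 and C1qtnf2 from 4.76 to 5.19. These ranges are narrow, and Ddah1, Pramel15 and C1qtnf2 are dim beside array medians of 5.62 to 5.93. The arrays were not centred on their medians for this correlation. The 2 arrays of a mouse are not independent, and the values describe these arrays only. Ifi47 is itself an IRG. Its shared probe set was at 6.18 and 6.87 in IL-15-/- CD16/32HI cells, against 7.32 and 6.50 in IL-15+/+ cells, and at 6.26 and 6.83 in IL-15-/- CD16/32LO cells, against 7.33 and 6.43 in IL-15+/+ cells. The arrays of each mouse differed there by at most 0.09, which was small beside the gaps between mice.

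The rest of the GBP and IRG lists was measured by 14 further probe sets. The probe set of Gvin1 and its relatives was placed in the IRG list here, without a claim that these genes are IRGs. Of these 0 passed between genotypes in CD16/32HI or CD16/32LO cells or on mouse means, where 0.0229%, 0.0367% and 0.17% of all probe sets did. Among the 7 other GBP probe sets, Gbp4, Gbp5, Gbp7, Gbp8, Gbp9 and Gbp11 were each lower in IL-15-/- CD16/32HI cells on average, and Gbp2b was not, with a median change of -0.337 that was 0.244 without IL-15-/- mouse 1. Gbp5, which helps assemble inflammasomes, was at 5.25 and 6.73 in IL-15-/- CD16/32HI cells, against 6.79 and 7.13 in IL-15+/+ cells. It was the 1 of the 7 with both IL-15-/- arrays below, as 10.4% of all probe sets were. Between populations, without that mouse, Gbp7 (0.79, limma adjusted p = 0.00827) and Gbp8 (0.95, limma adjusted p = 0.00356) were higher in CD16/32HI cells. These were 2 of 7, where 6.65% of all probe sets passed as higher. Gbp4, Gbp5, Gbp9 and Gbp11 had differences of 0.44, 0.54, 0.37 and 0.50 and did not pass, and Gbp2b had -0.07. All of the named GBPs other than Gbp2b ran the other way in IL-15-/- mouse 1, with -0.83 to -1.63. IL-15+/+ mouse 1 also had a negative difference in Gbp9 (-0.43) and Gbp4 (-0.01), so that 4 of the 7 were higher in all 3 of the other mice, as 23.8% of all probe sets were.

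Of the 7 other probe sets of the IRG list, 1 passed in each direction between populations without that mouse. This is near the 6.65% and 7.61% of all probe sets that passed as higher and lower. Gm4951, an Iigp1-like gene, differed by 2.47 in IL-15-/- mouse 2 and by 2.91 and 1.96 in the IL-15+/+ mice (mean 2.45, limma adjusted p = 8.23e-05). It was at 4.46 and 7.37 in IL-15-/- CD16/32HI cells, against 8.82 and 6.74 in IL-15+/+ cells, and at 4.85 and 4.90 in IL-15-/- CD16/32LO cells, against 5.90 and 4.78 in IL-15+/+ cells. Only the CD16/32LO array of IL-15-/- mouse 1 was low among the arrays with a positive marker balance, as for Cxcl9. The probe set shared by Tgtp1 and Tgtp2 was lower in CD16/32HI cells (-0.98, limma adjusted p = 0.00196). Averaged over both arrays, it was at 6.32 and 6.99 in IL-15-/- mice, against 8.26 and 7.0 in IL-15+/+ mice. It was the 1 of the 7 with both IL-15-/- mice below, if barely, where 6.29% of all probe sets were. In CD16/32HI cells 3 of the 7 had both IL-15-/- arrays below, where 10.4% of all probe sets did. These were the Tgtp1 and Tgtp2 probe set, Gm4841 and the probe set of Gvin1, and IL-15-/- mouse 1 is included. Gm12250, Gm4841, Irgc1 and the probe set shared by Gvin1 and its relatives did not pass in these comparisons.

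The ligand and the signalling genes showed no genotype difference past the test in either population (0 of 7). Of all probe sets 0.0229% passed in CD16/32HI and 0.0367% in CD16/32LO cells. In CD16/32HI cells 6 of 7 were higher in IL-15-/- mice on average. Jak1, Jak2 and Ptpn2, 3 of 7, had both IL-15-/- arrays above there, where 24.0% of all probe sets did. Socs1 had both below, where 10.4% did. By mouse means 4 of 7 had both IL-15-/- mice above, where 26.9% of all probe sets did. These counts include IL-15-/- mouse 1. Ifng was at 5.65 and 6.01 in IL-15-/- CD16/32LO cells, against 7.15 and 6.13 in IL-15+/+ cells. Both IL-15-/- arrays were below, as 4.71% of all probe sets were, and the IL-15+/+ array of replicate 1 stood above the other 3 (log2 change -0.81, limma adjusted p = 1.0). The mean of the NK cell markers on these arrays was 4.97 and 5.02 in IL-15-/- mice, against 6.98 and 6.66 in IL-15+/+ mice, and that of the T cell markers was 5.58 and 6.18 against 7.28 and 7.16. The IL-15+/+ array of replicate 2 was thus nearly as high in these markers as that of replicate 1, with Ifng close to that of IL-15-/- mouse 2. The part of the markers in the Ifng levels was not tested. In CD16/32HI cells Ifng was at 5.52 and 5.66 in IL-15-/- mice, against 5.84 and 5.09 in IL-15+/+ mice. By mouse mean Ifng was at 5.59 and 5.83 in IL-15-/- mice, against 6.50 and 5.61 in IL-15+/+ mice, and the highest mouse was also the highest in Cxcl9. Between populations, without IL-15-/- mouse 1, Ifng (-0.90), Jak1 (-0.85), Jak2 (-1.01) and Ptpn2 (-0.58), a phosphatase that dampens the pathway, were lower in CD16/32HI cells (limma adjusted p = 0.0129, 0.0068, 0.00175 and 0.0261). These were 4 of 7, where 7.61% of all probe sets passed as lower. The receptor chains Ifngr1 and Ifngr2 and the feedback inhibitor Socs1 did not pass.

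**Figure D5:**
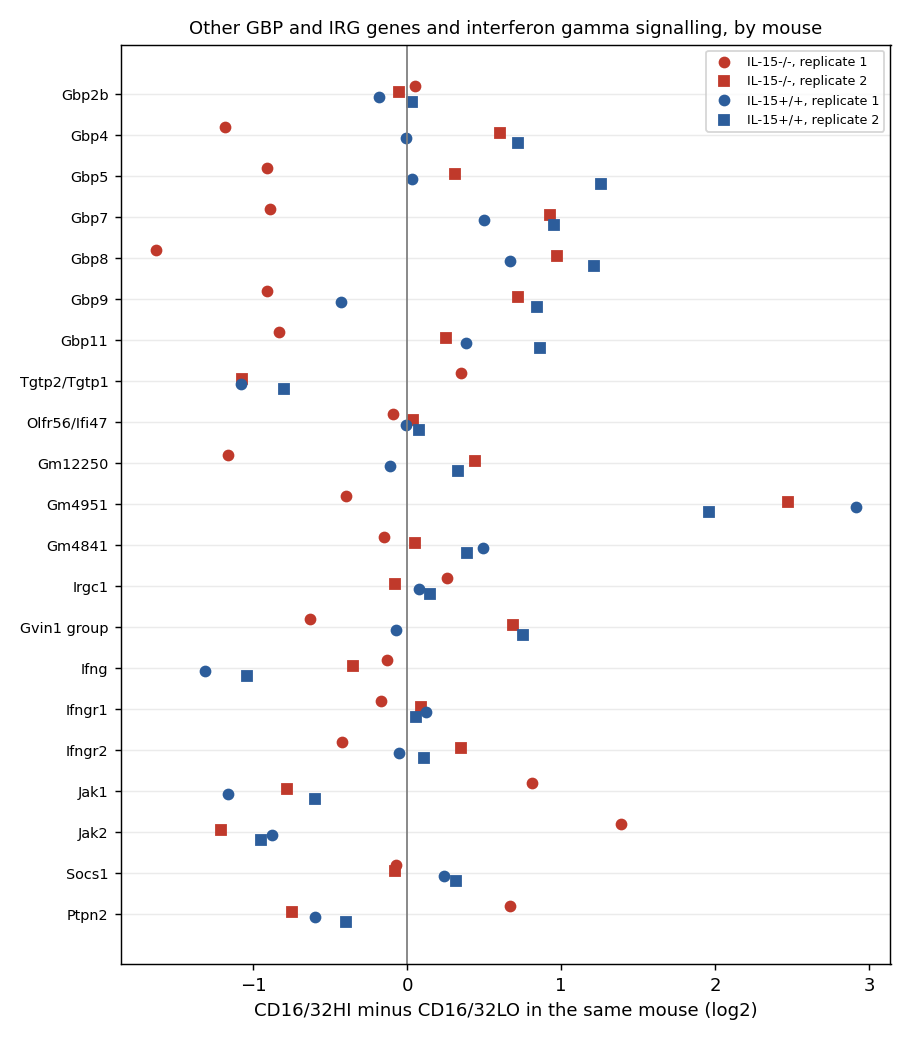
Difference CD16/32HI minus CD16/32LO in log2 signal within each mouse (horizontal axis) for 14 other probe sets of the GBP and IRG lists and 7 genes of interferon gamma signalling. Colours and shapes mark the 4 mice, and the Gvin1 group is a probe set shared by Gvin1 and relatives. Gm4951 has the largest differences of these, 1.96 to 2.91 in 3 mice, and Jak2 lies near -1.01 in the same mice.

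The other lists did not differ between genotypes by the test, and their 2 highest and 2 lowest changes are given here. These changes include IL-15-/- mouse 1, whose markers go against its labels. Among 23 probe sets of other interferon gamma targets, Cd274 (1.18) and Nos2 (0.66) were the highest and Fcgr1 (-1.0) and H2-Ab1 (-0.89) the lowest in CD16/32HI cells. In CD16/32LO cells they were Fcgr1 (1.05) and Nos2 (0.89), and Ccl5 (-0.61) and Tap1 (-0.51). Without IL-15-/- mouse 1 the CD16/32HI changes were 0.63 for Cd274, 0.66 for Nos2, 0.62 for Fcgr1 and 0.22 for H2-Ab1. The CD16/32LO changes were then 0.01 for Fcgr1, 1.22 for Nos2, 0.34 for Ccl5 and -0.42 for Tap1. Nos2, the inducible nitric oxide synthase, was above in both IL-15-/- arrays of each population, as were Oasl1 and Rsad2 among the type I interferon targets. Of all probe sets 24.0% did so in the CD16/32HI arrays, and 24.2% did in the CD16/32LO arrays. Among 7 transcription regulators, Stat2 (0.42) and Nlrc5 (0.40), and Ciita (-0.68) and Irf8 (-0.37), were the ends in CD16/32HI cells. The ends in CD16/32LO cells were Ciita (0.35) and Irf8 (0.33), and Irf2 (-0.27) and Stat2 (-0.09). Without IL-15-/- mouse 1 the CD16/32HI changes were 0.46 for Stat2, 0.20 for Nlrc5, 0.40 for Ciita and 0.84 for Irf8. The CD16/32LO changes were then -0.62 for Ciita, -0.04 for Irf8, -0.12 for Irf2 and 0.13 for Stat2. Among 7 genes that induce interferon gamma or mark the cells making it, Il12a (0.71) and Il12b (0.62), and Il18 (-0.69) and Eomes (-0.62), were the ends in CD16/32HI cells. In CD16/32LO cells they were Il18 (0.46) and Il12b (0.28), and Eomes (-1.01) and Cxcr3 (-0.45). Eomes, a transcription factor of NK cells and T cells, was below in both IL-15-/- arrays of each population, where 10.4% and 4.71% of all probe sets were in CD16/32HI and CD16/32LO cells. Among 15 genes better known as targets of type I interferon, Oasl2 (1.11) and Oas2 (0.85), and Mx1 (-0.31) and Oas1a (-0.29), were the ends in CD16/32HI cells, and Oas1a (0.50) and Mx2 (0.33), and Oasl2 (-1.39) and Irf7 (-0.39), in CD16/32LO cells.

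Between populations the other targets split in 2 directions, as the members did. Of 23 probe sets, 6 higher and 3 lower passed without IL-15-/- mouse 1, where 6.65% of all probe sets passed as higher and 7.61% as lower. The count of lower ones is near that share. The higher ones were Fcgr1 (2.17), the high-affinity antibody receptor CD64, the class II antigen presentation genes Cd74 (1.69), H2-Eb1 (1.64), H2-Ab1 (1.22) and H2-Aa (1.17), and Casp1 (0.62). Fcgr1 and the class II genes are also known as genes of macrophages and other antigen-presenting cells. The lower ones were Cd274 (-1.36), the inhibitory ligand PD-L1, the chemokine Ccl5 (-0.91) and the adhesion molecule Icam1 (-0.56). Class I genes did not pass, with B2m at 0.17 and the transporter Tap1 at -0.44. Among 7 regulators, Irf8 (1.04) and Ciita (1.32), the activator of class II genes, were higher in CD16/32HI cells. Among the inducers Il18 (1.27) was higher and Il12a (-1.14) was lower. Among the type I interferon targets Mx1 (0.68) and Ifit2 (0.64) were higher and Oasl2 (-2.43), Oas2 (-1.75) and Ddx58 (-1.03) were lower in CD16/32HI cells.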

How the data were processed

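The deposited values are log2 probe set signals that the authors made with RMA in Affymetrix Expression Console (version not given in the sources used here). Probe sets were named from the platform annotation (2016). Of 35557 probe sets, 21789 carry 1 gene symbol. Those and 8 shared probe sets of the gene lists, 21797 in all, were fitted with limma 3.58.1 in R 4.3.3 (lmFit, eBayes) and p-values adjusted by Benjamini-Hochberg. Genotypes were compared on 4 group means with 1 shared spread, populations within mice, and their interaction within mice. The methods also used a 3-fold filter. The fits were tested on simulated data. The members and gene lists were chosen with earlier results of these data known. All members, GBP and IRG genes and signalling genes are named. Of the other lists, those past the test and the 2 highest and 2 lowest changes between genotypes are named, and B2m was chosen after its value was seen. The number of arrays limits the precision, and 2 against 2 samples allow an exact permutation p of 0.333 at the least.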

Additional observations from a re-analysis of the deposited data

How the results depend on the processing

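All values here are log2 changes of single probe sets, medians of the 9 member probe sets, or counts of members past the test (limma adjusted p under 0.05). Between genotypes the count was 0 of 9 in both populations under every alternative run, which included a replicate block, the methods' per-gene test, each array centred on its median, quantile normalization, the normalization set as a block, the filter on dim probe sets, all probe sets of the table, and each array left out. With the replicate block, which cannot move a group difference in this design, Cxcl9 in CD16/32HI cells had a change of -2.0 (limma adjusted p = 0.729). The replicate number goes with age and, for replicate 1, with the normalization set, while the labels name no shared litter, batch or day. Same-numbered arrays correlated at 0.0553 (CD16/32HI) and 0.133 (CD16/32LO) in their deviations, over 2 pairs, which are too few to show a pairing. With the normalization set as a block the CD16/32LO median was -0.916, which rests on replicate 1, the set that holds both genotypes. On mouse means leaving out 1 mouse gave member medians of -0.681 to -0.00194, with 1 mouse left in a genotype each time. Between populations the count was 7 without IL-15-/- mouse 1, and leaving out 1 mouse gave medians of 0.0655 to 0.739. The interaction count ranged from 0 to 6, with 6 without IL-15-/- mouse 2.

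In CD16/32HI cells the sign turned for Cxcl10 (-0.51) and Ifng (-0.44) with the set block, for Ifng with centred arrays (-0.01), and for the Gbp6 cluster (0.26) and Irgm1 (0.45) without IL-15-/- mouse 1. In CD16/32LO cells it turned for Cxcl10 (-0.41), Gbp3 (-0.39), the Gbp6 cluster (-0.64) and Iigp1 (-0.69) with the set block, for Gbp3, the Gbp6 cluster and Iigp1 with centred arrays (-0.11, -0.11, -0.10) and quantile normalization (-0.10, -0.13, -0.11), and without that mouse for Gbp2/Gbp2b (0.19), Gbp3 (-0.42), the Gbp6 cluster (-0.26), Irgm1 (0.18), Irgm2/Igtp (0.07) and Irf1 (0.29). Between populations Gbp2/Gbp2b turned with quantile normalization (0.03). None of these passed, and the cause was not tested.

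Leaving out 1 array turned the sign of some changes, none of which passed then. In CD16/32HI cells the ranges were -0.42 to 0.95 for Cxcl10, -1.0 to 0.29 for Gbp2/Gbp2b, -1.22 to 0.26 for the Gbp6 cluster, -0.49 to 0.45 for Irgm1 and -0.25 to 0.50 for Ifng. In CD16/32LO cells they were -0.46 to 0.11 for Cxcl9, -1.53 to 0.21 for Gbp2/Gbp2b, -0.42 to 0.43 for Gbp3, -0.47 to 0.48 for the Gbp6 cluster, -0.87 to 0.18 for Irgm1, -1.41 to 0.07 for Irgm2/Igtp, -0.36 to 0.39 for Iigp1, -0.99 to 0.29 for Irf1 and -1.02 to 0.10 for Gm4951. Between populations, leaving out 1 mouse, Gbp2/Gbp2b ranged from -0.28 to 0.10.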
